A study of Mus musculus with 19 samples.

Results

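The 7 genes described here lie side by side on mouse chromosome 4 and were measured by RNA sequencing of the dorsal hippocampus. They are Slc6a9, B4galt2, Ipo13, St3gal3, Kdm4a, Ptprf and Tie1, and they make up 7 of the 51789 genes in the count table. They were chosen as neighbouring genes that differed between DN and control mice of experiment 1 in these same counts. Their difference in that comparison is therefore a description and carries no test, whereas the comparisons within experiment 2 used libraries that played no part in the choice.

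The study collected 19 libraries from male C57BL/6J mice aged 2 to 4 months. In experiment 1 all mice carried tTA, the tetracycline transactivator, and all were of the exposure SOR (the labels use only the abbreviation). Of these 11 libraries, 5 came from mice that also carried DN (genotype tTA+/DN+), a transgene named in the series text as Nr4ADN, that is, a dominant-negative Nr4A nuclear receptor, and 6 came from controls without it (tTA+/DN-). In experiment 2 no mouse carried DN: 4 libraries came from control mice exposed to SOR (3 of them tTA+/DN-, 1 tTA-/DN-) and 4 from control mice kept in the homecage (2 tTA+/DN- and 2 tTA-/DN-). The labels do not name the promoter behind tTA or the founder line of DN. In published mice of this kind tTA is driven by the CaMKII alpha promoter, which is active in forebrain excitatory neurons. The series' design text calls the controls littermates, and the labels do not say whether each library is a single animal, so p-values measure the spread between libraries.

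Totals ran from 22258159 to 66991576 counts per library, and the 7 genes had 211 to 3866 counts each in every library. The library with the fewest counts, SOR replicate 3 of experiment 2, held the highest level among the 8 libraries of experiment 2 for B4galt2, St3gal3, Kdm4a and Tie1 and the lowest for Slc6a9. Markers of excitatory neurons summed to 2583 to 3243 CPM (counts relative to the library total, scaled by the TMM method) over all libraries, and no listed marker of any cell type was at 0 throughout a group. Markers of choroid plexus, the tissue that makes cerebrospinal fluid, summed to 19.3 to 4021 CPM among the controls of experiment 1 and to 25.2 to 1605 CPM in the DN mice, so dissections differed in that tissue within groups.

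Ptprf encodes LAR, a receptor protein tyrosine phosphatase of the axon and presynaptic membrane. Receptors of this family bind adhesion partners such as the Slitrk proteins across the synaptic cleft and liprin scaffold proteins inside the cell. St3gal3 encodes a Golgi sialyltransferase that caps galactose on glycoproteins with sialic acid, and B4galt2 encodes a galactosyltransferase that adds such galactose. Slc6a9 is the glycine transporter GlyT1, found mainly on astrocytes, Kdm4a is a histone lysine demethylase, Ipo13 is a nuclear transport receptor of the importin beta family, and Tie1 is an endothelial receptor tyrosine kinase of the angiopoietin system.

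The 7 genes span 656 kb, from 117834506 to 118490061 (GRCm38). In order they are Slc6a9 (117834506 to 117875198), B4galt2 (117869260 to 117883487), Ipo13 (117894486 to 117914999), St3gal3 (117932154 to 118134914), Kdm4a (118136957 to 118180043), Ptprf (118208213 to 118291405) and Tie1 (118471191 to 118490061). All are protein-coding, and 6 lie on the minus strand while Slc6a9 lies on the plus strand. St3gal3 is the longest gene at 203 kb, with 2.77 kb of merged exons, and Ptprf covers 83.2 kb with 9.15 kb of merged exons. Kdm4a sits between them, 2.04 kb from St3gal3 and 28.2 kb from Ptprf. Ptprf contains only the microRNA gene Mir7226, which had 0 counts in all libraries. St3gal3 contains the antisense gene 9530034E10Rik, which had 0 to 17 counts per library. Slc6a9 and B4galt2 overlap by 5939 bases on opposite strands, and the use of strand in counting was not given in the sources used here, so reads from the shared stretch cannot be assigned to either gene with certainty.

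The start regions of the gene that was higher, the gene that was lower and the gene between them are printed below for comparison, as RefSeq gives them on GRCm38.p6 (minus strand, 250 bases before to 50 after the start). Capitals mark GC boxes (GGGCGG) and CCAAT boxes (CCAAT) on either strand; adjacent GC boxes can overlap.
Ptprf, chr4:118291348-118291647: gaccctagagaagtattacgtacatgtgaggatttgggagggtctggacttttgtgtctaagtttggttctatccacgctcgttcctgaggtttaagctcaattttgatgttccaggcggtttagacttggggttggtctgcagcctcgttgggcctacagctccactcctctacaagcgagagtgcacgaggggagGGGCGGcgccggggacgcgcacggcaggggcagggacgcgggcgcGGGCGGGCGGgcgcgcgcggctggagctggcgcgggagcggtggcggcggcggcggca
Kdm4a, chr4:118179994-118180293: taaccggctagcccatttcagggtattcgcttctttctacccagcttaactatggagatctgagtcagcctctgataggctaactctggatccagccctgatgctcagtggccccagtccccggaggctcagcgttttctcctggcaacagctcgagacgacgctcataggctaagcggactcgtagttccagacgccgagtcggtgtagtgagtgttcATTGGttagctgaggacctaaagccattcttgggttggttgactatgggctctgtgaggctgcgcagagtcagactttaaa
St3gal3, chr4:118134897-118135196: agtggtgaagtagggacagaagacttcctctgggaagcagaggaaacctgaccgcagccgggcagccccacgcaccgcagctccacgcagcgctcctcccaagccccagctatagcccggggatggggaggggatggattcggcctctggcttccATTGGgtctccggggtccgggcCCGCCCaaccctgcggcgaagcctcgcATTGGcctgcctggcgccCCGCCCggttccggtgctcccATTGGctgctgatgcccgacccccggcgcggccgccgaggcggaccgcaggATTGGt
The Ptprf window held 3 GC boxes and no CCAAT box, with 30 CpG dinucleotides. The St3gal3 window held 2 GC boxes, 4 CCAAT boxes and 26 CpG dinucleotides, and the Kdm4a window held no GC box, 1 CCAAT box and 13 CpG dinucleotides. Among 32851 start regions of this length, 35.7% held a GC box and 37.4% a CCAAT box on either strand, and the median CpG count was 7. The Nr4A response element AAAGGTCA and the half-site AGGTCA that it contains were each searched on both strands. Neither was found in the 9 windows of the 7 genes (3 for Slc6a9, 1 for each other gene), against 1.51% and 16.3% of all windows. These letters are thus absent from these windows, which says nothing of binding elsewhere.

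Ptprf mRNA was higher in every DN library than in any other library. DN replicates 1 to 5 had 66.1, 84.7, 81.3, 83.7 and 84.1 CPM. In the 6 controls of experiment 1 the lowest value was 27.4, the median 28.0 and the highest 29.1 CPM. The lowest DN library was above the highest control, and replicate 1 was below the other 4 DN libraries. The means were 80.0 ± 7.85 CPM (SD, n = 5) and 28.1 ± 0.640 CPM (SD, n = 6), and the log2 fold change was 1.51 (SE 0.0541), or 2.84-fold. By absolute log2 fold change Ptprf ranked 1 of 22391 tested genes. The 6 controls varied by 2.28% (coefficient of variation) where counting error alone gives 3.03%, and the 5 DN libraries varied by 9.81% against 1.87%. Without DN replicate 1 the other 4 DN libraries varied by 1.77%, so the wider spread came with that library.

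St3gal3 mRNA was lower in every DN library than in any other library. DN replicates 1 to 5 had 22.8, 23.0, 22.5, 23.8 and 18.9 CPM. In the controls of experiment 1 it ran from 33.8 to 37.5 CPM, with a median of 36.0. The groups did not overlap, and DN replicate 5 was the lowest. The means were 22.2 ± 1.90 CPM (SD, n = 5) and 35.8 ± 1.37 CPM (SD, n = 6), and the log2 fold change was -0.69 (SE 0.0538), or 1.61-fold lower. By absolute log2 fold change St3gal3 ranked 106 of 22391 tested genes, and 13 of the 12023 with a control mean of at least 5 CPM, where Ptprf ranked 1.

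Because both genes were counted in the same libraries, their ratio does not depend on scaling between libraries. The level of Ptprf divided by that of St3gal3 was 2.90, 3.69, 3.62, 3.51 and 4.45 in DN replicates 1 to 5. In the 14 libraries without DN it lay between 0.586 and 0.972. Each DN library therefore held more Ptprf than St3gal3 counts, and each other library held fewer. DN replicate 1 had the lowest Ptprf and DN replicate 5 the lowest St3gal3, so the extreme DN library was not the same for the 2 genes. In bulk tissue, fewer cells of a type and less RNA per cell cannot be told apart.

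**Figure D1:**
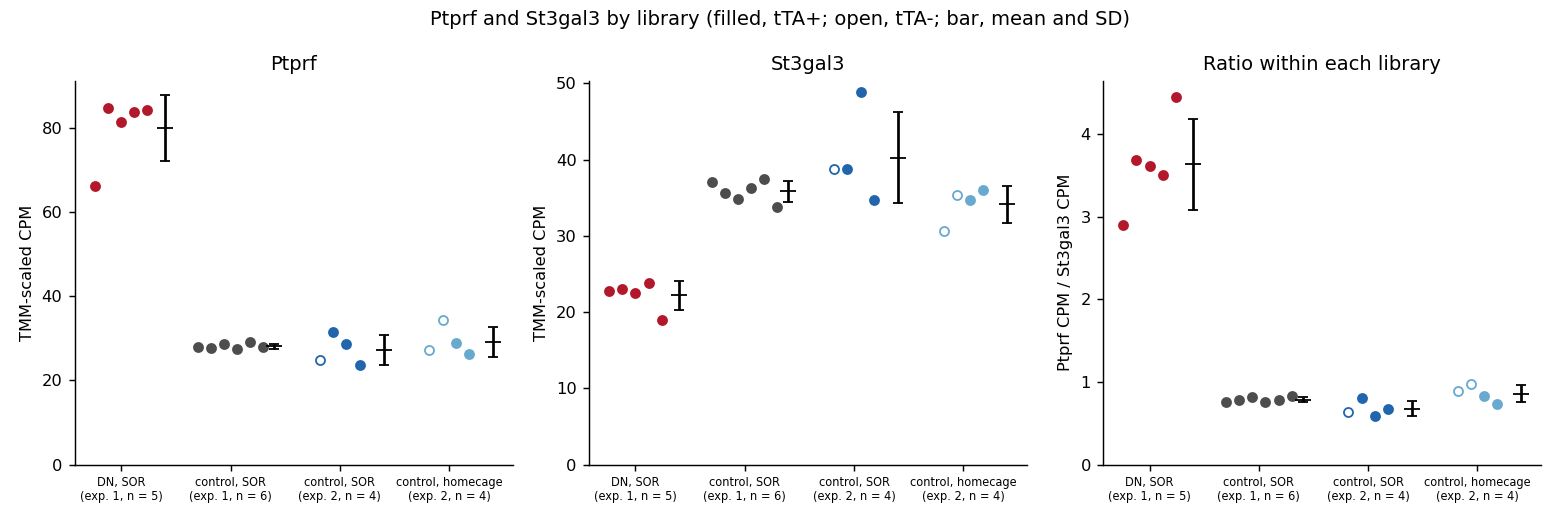
Ptprf and St3gal3 in TMM-scaled CPM, and the ratio of the 2 levels, for each of 19 libraries in 4 groups (points, libraries in replicate order, filled for tTA+ and open for tTA-; bars, mean and SD). The 5 DN libraries sit at 66.1 to 84.7 CPM for Ptprf, above all others, and at 18.9 to 23.8 CPM for St3gal3, below all others.

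The other 5 genes were higher in DN mice by smaller amounts. DN replicates 1 to 5 had 66.4, 71.5, 68.8, 69.6 and 70.2 CPM of Ipo13, and the controls had 54.8 to 63.8 CPM (median 62.2), a log2 fold change of 0.18 (SE 0.0398). Its groups did not overlap, and control replicate 1 was the lowest library. Slc6a9 was at 16.5, 17.8, 19.7, 18.4 and 21.1 CPM against 11.4 to 17.1 CPM (median 16.0), a log2 fold change of 0.27 (SE 0.0895). For Slc6a9, 4 of 5 DN libraries lay above all controls, and without control replicate 1, again the lowest, the log2 fold change was 0.20.

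Kdm4a, although it lies between Ptprf and St3gal3, had DN levels of 61.3, 69.3, 61.1, 65.3 and 68.6 CPM against 57.8 to 62.8 CPM (median 60.4), a log2 fold change of 0.11 (SE 0.0407). Of its DN libraries, 3 lay above all controls. B4galt2 was at 55.5, 50.0, 50.4, 46.8 and 49.3 CPM against 41.5 to 49.3 CPM (median 47.2), a log2 fold change of 0.12 (SE 0.0494). Tie1 was at 8.88, 10.1, 9.55, 10.1 and 9.60 CPM against 8.06 to 9.62 CPM (median 8.33), a log2 fold change of 0.17 (SE 0.0729). The DN and control ranges overlapped for B4galt2, Kdm4a, Slc6a9 and Tie1.

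Markers of endothelial cells, which express Tie1, summed to 211 to 236 CPM in the DN mice and 196 to 231 CPM in the controls. All 10 of those markers were tested, 8 had a log2 fold change above 0, and the median was 0.05. Astrocyte markers, listed because Slc6a9 is found on astrocytes, summed to 5408 to 5675 CPM with DN and 5372 to 5673 CPM in the controls, and 4 of 8 had a log2 fold change above 0, with a median of -0.02. Blood markers summed to 39.8 to 107 CPM (median 41.3) with DN and 36.1 to 72.5 CPM (median 48.1) in the controls. Of these markers 5 of 5 had a log2 fold change above 0, with a median of 0.20, although the median sum was lower with DN. The part of these cell types in the differences was not tested. Of the 8 choroid plexus markers 0 were called and 0 had a log2 fold change above 0 with DN, with a median of -0.88. The median library sum of these markers was nonetheless higher with DN, at 39.7 CPM against 24.4 CPM in the controls. The part of choroid plexus was not tested either.

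**Figure D2:**
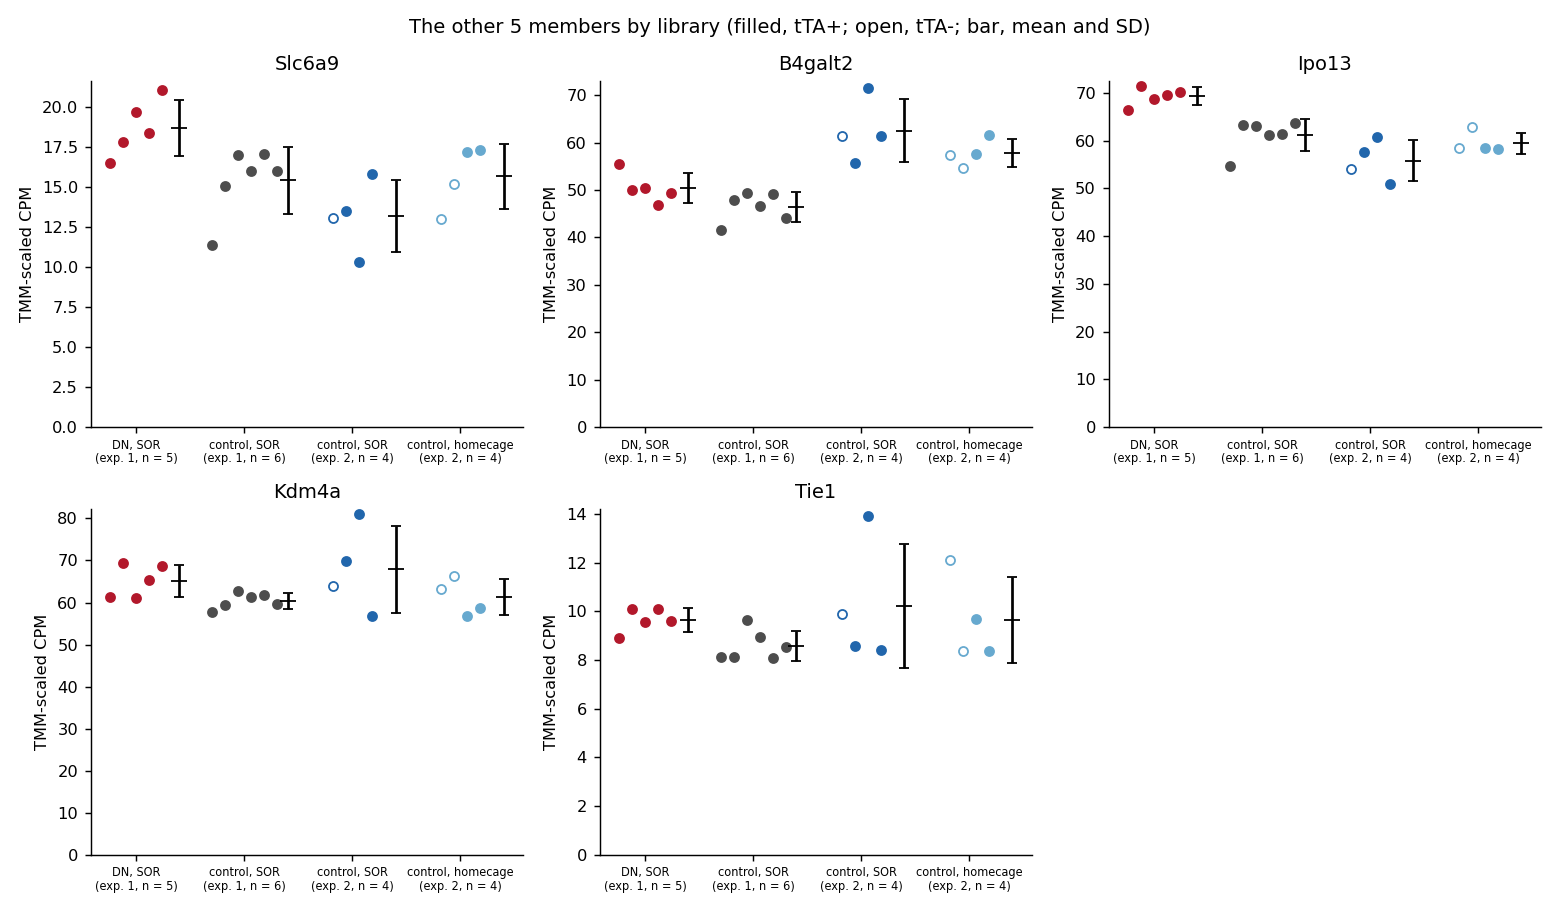
Slc6a9, B4galt2, Ipo13, Kdm4a and Tie1 in TMM-scaled CPM for each of 19 libraries in 4 groups (points, libraries in replicate order, filled for tTA+ and open for tTA-; bars, mean and SD). Only Ipo13, at 66.4 to 71.5 CPM, shows DN libraries that lie wholly above the 14 libraries without DN (50.9 to 63.8 CPM).

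Of the 7 genes, 2 were called in DN against control at an edgeR adjusted p under 0.05, Ptprf higher and St3gal3 lower, and 0.00893% of all tested genes were called. Groups did not overlap for 3 of the 7 and for 0.304% of all tested genes. Nothing is read from these counts, since the genes were picked on this comparison. The median log2 fold change of the 7 was 0.17, against 0.00 over all genes.

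The size of the difference did not fall in order with distance from Ptprf along the chromosome. Between the outermost of the 7 genes, 9 other genes were tested, and their log2 fold changes ran from -0.09 to 0.43 with a median of 0.02. Atp6v0b, a subunit of the vacuolar proton pump that lies between B4galt2 and Ipo13, was at 120 ± 5.12 CPM with DN and 120 ± 6.95 CPM in the controls (SD, n = 5 and n = 6), and the log2 fold change was -0.01 (SE 0.0405). Dph2, a diphthamide synthesis gene beside it, had a log2 fold change of -0.09 (SE 0.0692), and Artn, the neurotrophic ligand artemin between Ipo13 and St3gal3, had one of -0.01 (SE 0.313) at under 1 CPM. Between Ptprf and Tie1, log2 fold changes included 0.14 (SE 0.129) for Hyi, 0.02 (SE 0.0531) for the Mediator subunit Med8, 0.01 (SE 0.0768) for the fatty acid elongase Elovl1 and 0.18 (SE 0.236) for the mitotic regulator Cdc20. No absolute log2 fold change of these 9 genes reached 0.5.

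Among the genes that passed the filter on low counts, the one nearest to being chosen was Ccdc24, inside the Slc6a9 locus. It was at 0.535 ± 0.137 CPM with DN and 0.397 ± 0.0788 CPM in the controls. Its log2 fold change was 0.43 (SE 0.242), or 1.78 standard errors from 0. Gm12853, which did not pass the filter, was at -0.96 (SE 0.433) when no filter was used. Ccdc24 lies wholly within Slc6a9 on the opposite strand and shares 3298 bases with B4galt2 on the same strand, so its few counts are uncertain too. The chosen gene nearest to the edge was Tie1, at 2.33 standard errors. Up to 0.5 Mb outside the 7 genes, 8 more genes were tested: Rnf220, Eri3, Dmap1 and Gm12844 on the Slc6a9 side and Tmem125, Cfap57, Ebna1bp2 and Lao1 on the Tie1 side. Their log2 fold changes ran from -0.19 to 0.14. The DN and control ranges overlapped for all 17 genes of this window that were not chosen. Nothing is read from this, since the choice took genes that differed and ranges did not overlap for only 0.304% of all tested genes.

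Farther out, 95 genes between 0.5 and 5 Mb from the middle of the gap between St3gal3 and Ptprf were tested, and 0 had an unadjusted edgeR p under 0.05, where 3.83% of all tested genes did. Their median absolute log2 fold change was 0.046, against 0.061 for all genes. The share was 3.91% of 128 genes between 5 and 10 Mb and 4.81% of 1018 genes beyond 10 Mb on the same chromosome.

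**Figure D3:**
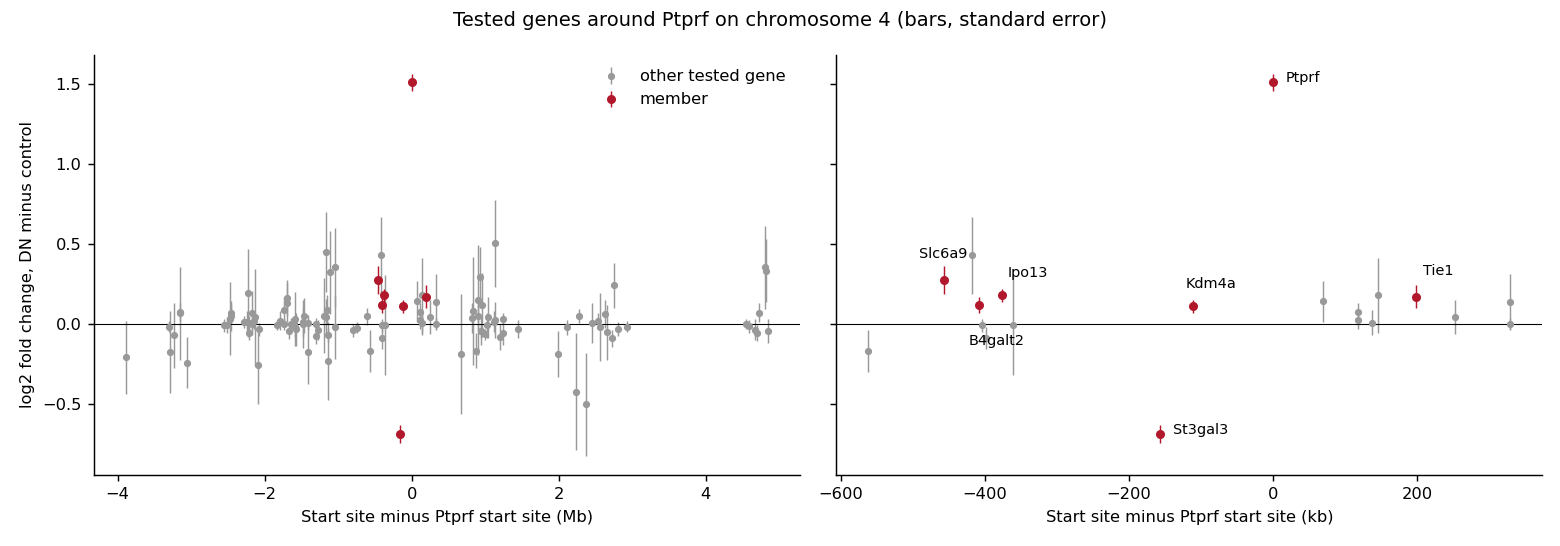
Log2 fold change (DN minus control, with standard error) of tested genes on chromosome 4 against the distance of their start site from that of Ptprf, within 5 Mb (left) and close by (right). Ptprf at 1.51 and St3gal3 at -0.69 stand away from their neighbours, while Kdm4a between them is at 0.11.

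In experiment 2 none of the 7 genes was called between SOR and homecage mice. This comparison asked whether the genes responded to SOR in mice without DN. The Ptprf level was 24.8, 31.4, 28.6 and 23.6 CPM with SOR (replicates 1 to 4) against 27.2, 34.3, 28.9 and 26.2 CPM without it (homecage replicates 1 to 4). The ranges overlapped, and the log2 fold change was -0.11 (SE 0.123, 95% interval -0.38 to 0.16, edgeR adjusted p 0.780). It was -0.20 without SOR replicate 2 and -0.02 without homecage replicate 2. The St3gal3 level was 38.7, 38.8, 48.8 and 34.7 CPM with SOR against 30.6, 35.3, 34.7 and 36.0 CPM without it. Of the SOR libraries, 3 lay above all homecage libraries, and the log2 fold change was 0.23 (SE 0.110, 95% interval -0.01 to 0.47, edgeR adjusted p 0.662). Without SOR replicate 3, whose value of 48.8 CPM was the highest, it was 0.13.

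For the other 5 genes the ranges also overlapped. Slc6a9 was at 13.1, 13.5, 10.3 and 15.8 CPM after SOR against 13.0, 15.2, 17.2 and 17.3 CPM, with a log2 fold change of -0.25 (95% interval -0.56 to 0.05). Ipo13 was at 54.1, 57.7, 60.7 and 50.9 CPM against 58.4, 62.8, 58.5 and 58.3 CPM, with a log2 fold change of -0.10 (-0.28 to 0.08). Kdm4a had a log2 fold change of 0.14 (-0.11 to 0.38), B4galt2 one of 0.11 (-0.09 to 0.30) and Tie1 one of 0.07 (-0.32 to 0.46). The count called was 0 of 7, with a background of 0.0897% of all tested genes, and 0 of 7 had an unadjusted edgeR p under 0.05, where 7.60% of all genes did. Groups that did not overlap were found for 0 of 7, and for 5.70% of all genes. DESeq2 and limma-voom also called 0 of 7. The SOR interval includes the log2 fold change seen with DN for Kdm4a, B4galt2 and Tie1, and does not include it for Ptprf, St3gal3, Ipo13 and Slc6a9. The DN values chose these genes and have errors of their own, so this is a description and no test. Without SOR replicate 3, Kdm4a was at 0.05, B4galt2 at 0.04, Slc6a9 at -0.16 and Tie1 at -0.10. All 8 choroid plexus markers had a log2 fold change above 0 after SOR, with a median of 2.16 and 0 called, and their part in these values was not tested.

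The tTA comparison asked whether the transactivator alone went with a different level. Every mouse of experiment 1 carried tTA, DN and control alike, so tTA did not differ between the groups of DN against control. In 5 tTA+ against 3 tTA- libraries of experiment 2, with exposure in the model, 0 of 7 genes were called by edgeR, DESeq2 or limma-voom, with an edgeR background of 0.358%, and 0 had an unadjusted p under 0.05, where 5.71% of all genes did. Mean Ptprf was 27.7 ± 2.95 CPM with tTA (SD, n = 5) and 28.8 ± 4.93 CPM without it (SD, n = 3), and the log2 fold change was -0.03 (SE 0.142, 95% interval -0.34 to 0.28). St3gal3 was at 38.6 ± 5.93 and 34.9 ± 4.07 CPM, a log2 fold change of 0.08 (SE 0.123, 95% interval -0.19 to 0.36). The other 5 log2 fold changes ran from -0.09 for Tie1 to 0.16 for Slc6a9, and every adjusted p from edgeR rounded to 1. The ranges of the tTA+ and tTA- libraries overlapped for all 7 genes, and did not overlap for 5.88% of all genes. With tTA, 8 of 8 oligodendrocyte markers (median log2 fold change 0.20) and 8 of 8 microglia markers (0.12) were above 0. So were 6 of 8 astrocyte markers (0.08), 4 of 10 endothelial markers (-0.03) and 2 of 8 choroid plexus markers (-0.35). The part of these cell types was not tested.

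**Figure D4:**
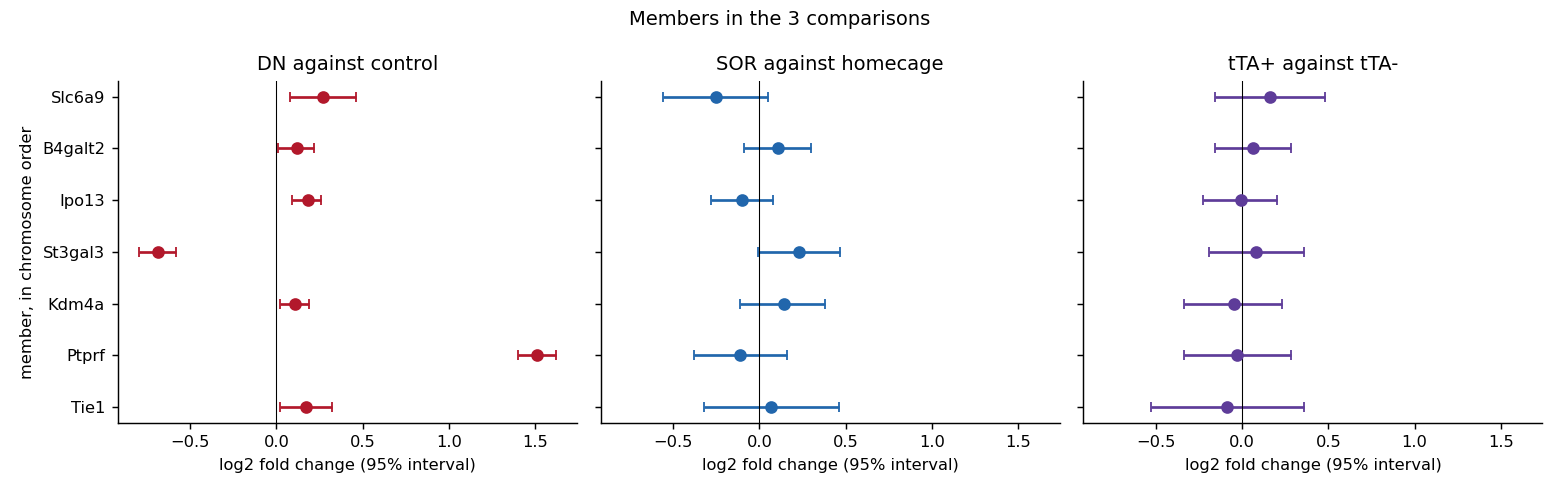
Log2 fold change with its 95% interval for the 7 genes, in chromosome order, in DN against control, SOR against homecage and tTA+ against tTA-. Ptprf (1.51) and St3gal3 (-0.69) in the first panel, which is descriptive because it chose the genes, lie apart from the other panels, where every interval includes 0.

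Across experiments, levels can only be set side by side, since batch and group cannot be told apart. The controls of experiment 1 and the 3 tTA+ SOR controls of experiment 2 share genotype and exposure. Ptprf was at 28.1 ± 0.640 CPM in the former and 27.9 ± 3.95 CPM in the latter (SD, n = 6 and n = 3), a log2 ratio of 0.01. St3gal3 was at 35.8 ± 1.37 and 40.8 ± 7.22 CPM, a log2 ratio of -0.19 with overlapping ranges. B4galt2 was the 1 gene of the 7 whose ranges did not overlap, at 46.4 ± 3.07 CPM in experiment 1 and 62.9 ± 8.01 CPM in experiment 2, a log2 ratio of -0.44. Between the same 2 sets of libraries, ranges did not overlap for 22.9% of 22391 genes. The difference in B4galt2 between these like-labelled groups was thus wider than its log2 fold change of 0.12 with DN.

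Per kb of merged exon, Ipo13 was the most abundant of the 7 in the controls of experiment 1, at 14.6 CPM per kb. It was followed by St3gal3 at 12.9, Kdm4a at 10.4, B4galt2 at 9.23, Ptprf at 3.07, Slc6a9 at 3.0 and Tie1 at 1.74 CPM per kb. The ranges of Ipo13 and St3gal3 overlapped, as did those of Ptprf and Slc6a9. Within libraries, Ipo13 was below St3gal3 in control replicate 1 (13.0 against 13.4 CPM per kb) and above it in the other controls. Slc6a9 was above Ptprf in control replicates 3 to 6 and below it in replicates 1 and 2. In the DN mice Ptprf was at 8.74 CPM per kb and St3gal3 at 8.02 CPM per kb, with overlapping ranges. Within libraries, Ptprf was above St3gal3 in DN replicates 2 to 5 and below it in replicate 1 (7.23 against 8.25 CPM per kb). In both groups of experiment 2 the order from Ptprf down to Tie1 was that of the experiment 1 controls, and B4galt2 stood above Kdm4a with overlapping ranges. St3gal3 stood above Ipo13 after SOR, with overlapping ranges, and in the homecage Ipo13 was highest, with a range clear of the others.

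Genes that work with the 7 were taken from 6 lists by textbook role. The lists held 105 other genes, of which 102 were tested in each comparison. With DN, 0 of 102 were called by edgeR and 1, or 0.980%, had an unadjusted p under 0.05, beside 3.83% of all genes. It was Svep1, an extracellular matrix protein, with a log2 fold change of -0.42 (SE 0.188), named after its value was seen. Of the 25 partners and relatives of Ptprf (the receptors Ptprs and Ptprd, liprins, Slitrk proteins and other ligands), 9 had a log2 fold change above 0 and 16 below, from -0.11 to 0.05, with a median of -0.01. Of the 25 other sialylation and galactosylation genes, 10 were above 0 and 15 below, from -0.34 to 0.17, with a median of -0.03. The medians were 0.01 for 13 histone demethylases, 0.00 for 17 importin family receptors, 0.01 for 17 glycine genes and -0.02 for 5 angiopoietin system genes, against 0.00 over all genes. No other listed member of either enzyme or receptor family was thus called beside Ptprf and St3gal3.

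In SOR against homecage, 0 of the 102 genes were called by edgeR and 9, or 8.82%, had an unadjusted edgeR p under 0.05, beside 7.60% of all genes. In tTA+ against tTA- mice, 0 were called by edgeR and 8, or 7.84%, had an unadjusted p under 0.05, beside 5.71% of all genes. DESeq2 called 2 of them, B4galt1 and Ppfia2, and edgeR called 3 with all 19 libraries in 1 fit, these 2 and Glra2. Of the 5 tested angiopoietin system genes, 0 were called after SOR, 0 had a log2 fold change above 0 and 5 below, with a median of -0.23. Tie1 itself was at 0.07, and at -0.10 without SOR replicate 3. Of the 10 endothelial markers, 3 had a log2 fold change above 0 after SOR, with a median of -0.12, and their part in these values was not tested.

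Over the 19 libraries, after the group mean was taken from each log2 CPM, the 21 pairs had correlations from -0.47 to 0.79, with a median of 0.24. These values rested in part on SOR replicate 3 of experiment 2. Without it they ran from -0.63 (B4galt2 and Ptprf) to 0.73 (Kdm4a and Ptprf), with a median of -0.01, and 8 of the 21 pairs changed sign. Ipo13 and Kdm4a were the closest pair over all libraries at 0.79, and without that library they were at 0.71, below Kdm4a and Ptprf. Ptprf and St3gal3 had a correlation of 0.22, and 0.13 without that library. Among 12044 genes with a mean of at least 5 CPM, those most like Ptprf were Tle3 (0.89), Fat1 (0.88) and Nfasc (0.88), and those most opposed were Stk3 (-0.89), Rhot1 (-0.87) and Dnaja2 (-0.87). For St3gal3 they were Pex26 (0.89), Ciapin1 (0.89) and Heatr5b (0.88), and Glmn (-0.82), Zfx (-0.82) and Atxn3 (-0.81). Without SOR replicate 3 of experiment 2, the 3 positive values for St3gal3 were 0.78, 0.81 and 0.78 and the 3 negative values were -0.64, -0.65 and -0.62. None of these 12 genes lies on chromosome 4. The points share libraries, depth and scaling, so these correlations only describe the residual variation of the libraries.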

How the data were processed

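RNA sequencing counts from 19 dorsal hippocampus libraries were used, made from ribosomal-RNA-depleted total RNA per the labels. The authors deposited whole-number counts per gene in 1 table. The submitters' processing notes name STAR, SAMtools 1.6, featureCounts 1.4.4 and the build mm10. The annotation, strand use and treatment of multiply mapped reads were not given in the sources used here. Each column matched 1 sample by its description. Symbols, positions and exons came from GENCODE M21 (GRCm38), which held 51596 of 51789 identifiers, and start regions from RefSeq.

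Each experiment was fitted alone with edgeR 4.0.16 (TMM, filterByExpr, robust quasi-likelihood F test, two-sided) in R 4.3.3. Benjamini-Hochberg adjustment ran over 22391, 22305 and 22904 genes for DN, SOR and tTA. Calls needed an adjusted p under 0.05. Intervals are 95%. Standard errors are the absolute log2 fold change over the root of F. The levels given are CPM scaled by TMM over all libraries, as mean ± SD. Counts in single libraries cover counting error only. The fits were tested on simulated data. Libraries of a group differed beyond counting noise (chi-square per degree of freedom 5.07 to 83.6), so none was counted as a repeat.

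The genes and lists were chosen with earlier results of these data known. Named were the 7 genes, tested genes within 0.5 Mb of them, called genes (also of the lists), and the 3 most and 3 least correlated genes (log2 CPM, prior count 2). The values of 1 gene that this rule names are not reported here. Alternatives were other scalings and filters, DESeq2 1.42.0, limma-voom (limma 3.58.1), all libraries in 1 fit, a replicate block, tTA terms and each library left out.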

Additional observations from a re-analysis of the deposited data

Results flagged for a closer look

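Several libraries stood apart from the rest of their group in single genes, by Dixon's test at its 95% level. It was applied to 32 sets of values, those of the 7 genes and of the ratio of Ptprf to St3gal3, and marked 5, none of them for the ratio, where chance marks about 1 in 20.

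Ptprf in DN replicate 1 was at 66.1 CPM against 81.3 to 84.7 CPM in the other 4 DN libraries, a gap of 0.817 of the group's range. St3gal3 in DN replicate 5 was at 18.9 CPM against 22.5 to 23.8 CPM, a gap of 0.725. In control replicate 1 of experiment 1, Slc6a9 was at 11.4 CPM against 15.1 to 17.1 CPM and Ipo13 at 54.8 CPM against 61.2 to 63.8 CPM. Ipo13 in homecage replicate 2 was at 62.8 CPM against 58.3 to 58.5 CPM, a gap of 0.942. Leaving out DN replicate 1 moved the log2 fold change of Ptprf to 1.57, and leaving out DN replicate 5 moved that of St3gal3 to -0.64.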

How the results depend on the processing

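Ptprf and St3gal3 kept their direction with DN in all 9 alternatives, at log2 fold changes of 1.50 to 1.52 and -0.71 to -0.67, and in the 11 fits that each left out 1 library, at 1.48 to 1.57 and -0.72 to -0.64. These values describe the comparison that chose the genes and are no independent support for it. In the other comparisons, 0 of the 7 genes were called in every alternative run. Replicate numbers did not pair the libraries: same-numbered libraries had deviations that correlated from -0.02 to 0.44 in experiment 1 and from 0.01 to 0.60 in experiment 2, and only number 2 of experiment 2 correlated best with its own number. With the replicate block, Ptprf was at 1.50 and St3gal3 at -0.71 with DN, which again only describes them, and at -0.11 and 0.22 with SOR, with 0 of the 7 genes called.

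Small values changed sign; the cause was not tested. In tTA+ mice alone Ptprf had an SOR log2 fold change of 0.02, and Tie1 ran from -0.10 (without SOR replicate 3) to 0.19 when 1 library was left out. With tTA, leaving out 1 library gave -0.18 to 0.10 for Ptprf, -0.07 to 0.03 for Ipo13, -0.20 to 0.07 for Tie1, -0.18 to 0.00 for Kdm4a, 0.09 to 0.27 for Slc6a9, 0.02 to 0.14 for St3gal3 and 0.02 to 0.09 for B4galt2. The extremes came without SOR replicate 1 or 3 or homecage replicate 1 or 2, and for the highest B4galt2 value without SOR replicate 2. Of the listed genes other than the 7, 0 were called with tTA, but 2 without the filter on low counts (Glra2 and B4galt1), 2 by DESeq2 (B4galt1 and Ppfia2), 3 with all 19 libraries in 1 fit (those 3 genes) and 0 to 4 when 1 library was left out, with 1 without SOR replicate 2 (B4galt1) and 4 without SOR replicate 3 (these 3 and Ppfia4). These genes were named after their values were seen. Leaving out SOR replicate 3 also moved the SOR log2 fold changes of St3gal3, Kdm4a, B4galt2 and Slc6a9 by over 1.5 times, to 0.13, 0.05, 0.04 and -0.16. Without SOR replicate 4, Kdm4a was at 0.22, Ipo13 at -0.06 and Ptprf at -0.05, and Ptprf was at -0.07 without SOR replicate 1. In tTA+ mice alone Kdm4a was at 0.26, Ipo13 at -0.05, Slc6a9 at -0.38 and Tie1 at 0.18. With upper quartile scaling Kdm4a was at 0.09, B4galt2 at 0.06 and Tie1 at 0.02. The coefficient of variation of Ptprf without DN replicate 1 and the correlations' median without SOR replicate 3 were chosen after seeing the data. Plain CPM moved no group mean of Ptprf or St3gal3 by more than 1 SD. Without the filter on low counts, 8 genes rather than 7 within 0.5 Mb had an unadjusted p under 0.05 with DN; the added gene was Gm12853 (-0.96, SE 0.433).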
